A study of Mus musculus with 4 samples.

Results

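Haemoglobin-dominated barcodes were selected on their own transcript counts, as those in which the adult alpha globin transcripts Hba-a1 and Hba-a2 and the adult beta globin transcripts Hbb-bs and Hbb-bt together exceeded 50% of gene UMIs (unique molecular identifiers, 1 per captured transcript). No filter on genes, UMIs, mitochondrial share or hashtags was applied, and 740 of the 8074 deposited barcodes met the rule. They were 51 of 4939 barcodes at 15 months and 689 of 3135 at 3 months, and the remaining 4888 and 2446 are called other barcodes. Cells had been dissociated with collagenase IV and DNase I from ovaries of virgin wild-type C57BL/6J mice and sorted as CD45+ CD11b+, the surface markers of myeloid leukocytes, then captured on the Chromium 3' v3.1 platform. The older group was labelled 15 months (harvested at 14 to 17 months, 5 animals) and the younger 3 months (harvested at 2 to 3 months, 6 animals). Each age had 3 hashtag pools joined before 1 sort and 1 library, so that age, sort and library cannot be told apart, and the study description and the protocol differ on whether every older pool came from a pair of mice. Values between the ages therefore describe a pair of libraries. These held 45060166 gene UMIs and 12769587 hashtag counts at 15 months and 27277073 and 6493788 at 3 months, and 3 barcode sequences occurred in both libraries, none of them haemoglobin-dominated.

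Red blood cells arise from erythroblasts, which fill with haemoglobin, condense and expel the nucleus and become reticulocytes. A reticulocyte makes no new RNA, and it clears its mitochondria and ribosomes by autophagy and the ubiquitin system while it circulates. Haemoglobin pairs alpha with beta globin chains around haem, whose synthesis starts with Alas2, the erythroid 5-aminolevulinate synthase, and ends with Fech, the ferrochelatase that inserts iron. Red cells carry neither CD45 nor CD11b when mature and are not a target of this sort.

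The genes behind the rule, with Alas2 as the marker that the rule did not use, lie on 3 chromosomes of GRCm38 (GENCODE M21). Hbb-bs spans chr7:103826534-103828096 and Hbb-bt chr7:103812524-103813996, both on the minus strand, and both are protein-coding genes of the beta globin cluster. Hba-a1 spans chr11:32283511-32284465 and Hba-a2 chr11:32296489-32297298 on the plus strand, and Alas2 spans chrX:150547375-150570638 on the plus strand. The last 200 bases of the annotated transcripts, from which a 3' library reads, were aligned within each pair. Hba-a1 and Hba-a2 were identical in 183 of 216 alignment columns (84.7%), and Hbb-bs and Hbb-bt in 161 of 203 (79.3%). Columns with a gap count as not identical, so both percentages understate the identity of the aligned bases, more so for the alpha pair. The split of reads within a pair is thus less certain than its sum, above all for the alpha pair. The 250 bases before the RefSeq start (GRCm38.p6) of Hbb-bs, Hbb-bt, Hba-a1 and Alas2 are shown because their transcripts were high together in the same barcodes. Capitals mark, on either strand, the letters CACCC, which KLF factors bind, the letters GATAA, which GATA factors bind, and the letters CCAAT, which bear the name of the CCAAT-binding factors.
Hbb-bs (chr7:103827929-103828178, minus strand): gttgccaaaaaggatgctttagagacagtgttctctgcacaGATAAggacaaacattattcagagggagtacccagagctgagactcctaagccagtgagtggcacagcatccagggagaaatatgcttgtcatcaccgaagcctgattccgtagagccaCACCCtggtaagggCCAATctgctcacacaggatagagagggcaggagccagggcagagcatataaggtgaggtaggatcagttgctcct
Hbb-bt (chr7:103813924-103814173, minus strand): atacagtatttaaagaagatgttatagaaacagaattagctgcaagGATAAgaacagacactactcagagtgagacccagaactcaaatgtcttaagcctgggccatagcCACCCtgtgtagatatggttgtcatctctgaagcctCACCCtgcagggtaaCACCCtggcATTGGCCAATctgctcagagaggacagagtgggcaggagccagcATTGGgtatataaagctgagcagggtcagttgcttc
Hba-a1 (chr11:32283422-32283671, plus strand): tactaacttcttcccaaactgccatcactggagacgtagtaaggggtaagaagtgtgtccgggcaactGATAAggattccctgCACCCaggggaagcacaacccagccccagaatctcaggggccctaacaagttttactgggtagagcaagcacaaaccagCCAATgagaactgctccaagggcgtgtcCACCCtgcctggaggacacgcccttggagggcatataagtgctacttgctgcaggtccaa
Alas2 (chrX:150547167-150547416, plus strand): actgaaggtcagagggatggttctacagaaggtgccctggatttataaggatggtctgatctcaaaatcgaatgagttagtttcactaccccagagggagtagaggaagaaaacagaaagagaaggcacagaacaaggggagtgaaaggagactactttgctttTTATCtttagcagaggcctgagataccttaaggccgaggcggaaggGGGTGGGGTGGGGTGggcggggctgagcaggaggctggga
Both alpha globin windows held CACCC at 2 places and GATAA and CCAAT at 1 place each. The Hbb-bs window held each of the motifs at 1 place, and the Hbb-bt window held CACCC at 3 places, GATAA at 1 and CCAAT at 3. The Alas2 window held CACCC at 3 places and GATAA at 1, and no CCAAT. No pair of matches overlapped in these windows. Over all 32851 RefSeq windows of the same length, 52.0% held CACCC, 22.6% held GATAA, 33.8% held CCAAT and 3.45% held all 3. These matches are a description of the letters in the windows.

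The rule separated the barcodes widely at 15 months and less so at 3 months. At 15 months, the nearest barcode inside the limit had 88.1% haemoglobin UMIs and the nearest outside it 19.1%. At 3 months, these were 50.9% and 48.5%. At 3 months, 5 barcodes lay between 30% and the limit and 11 between the limit and 70%, against none of either at 15 months. The median haemoglobin share was 97.0% in the 15-month haemoglobin-dominated barcodes and 97.7% in the 3-month ones. They held 0.907% of all gene UMIs at 15 months and 27.5% at 3 months, and all but 1.58% and 0.961% of the haemoglobin UMIs.

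**Figure D1:**
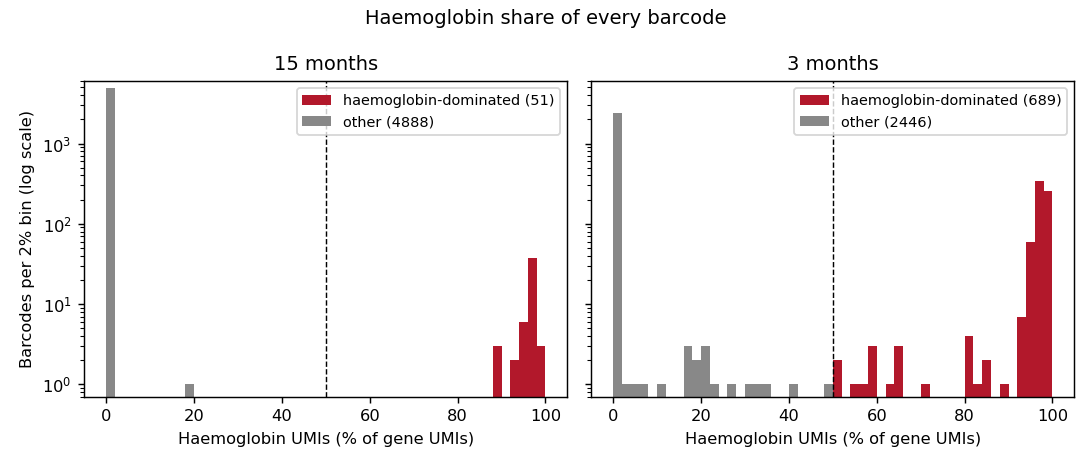
Number of barcodes (log axis) in bins of 2% by their share of haemoglobin UMIs, with 15 months on the left and 3 months on the right. Red bars are haemoglobin-dominated barcodes (51 and 689), grey bars are other barcodes (4888 and 2446), and the dashed line is the limit of 50%. Most barcodes lie at either end of the axis, and the middle holds few, nearly all of them from 3 months.

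Haemoglobin-dominated barcodes held about as many UMIs as other barcodes but few transcripts beside globin. At 15 months, they had a median of 6286 UMIs, against 6967.5 in other barcodes, and at 3 months 8763 UMIs, against 6968. Their non-haemoglobin UMIs numbered between 51 and 1249 with a median of 152 at 15 months, against a median of 6967.5 in other barcodes. At 3 months they ran between 17 and 12735 with a median of 216, against 6962 in other barcodes. A median of 85 genes was detected per haemoglobin-dominated barcode at 15 months, against 2118 in other barcodes, and 91 at 3 months, against 2029.5. In total, the results on the remaining transcripts rest on 12591 non-haemoglobin UMIs at 15 months and 275734 at 3 months, so the 15-month values are the less precise.

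Their share of barcodes was 1.03% at 15 months and 22.0% at 3 months. The exact binomial 95% intervals were 0.770 to 1.36% and 20.5 to 23.5%, and all such intervals cover counting error only. Barcodes with a called hashtag allowed a comparison over pools. At 15 months, haemoglobin-dominated barcodes were 0 of 803 called barcodes in pool 1, 0 of 2415 in pool 2 and 1 of 987 (0.101%) in pool 3. At 3 months, they were 53 of 559 (9.48%), 42 of 541 (7.76%) and 23 of 1034 (2.22%). All 3-month pools lay above all 15-month pools. Over the pools, the share averaged 0.0338 ± 0.0585% in the 15-month library and 6.49 ± 3.79% in the 3-month library (SD, n = 3 pools of each age). The difference was -6.46 percentage points (n = 3 pools; exact permutation test, two-sided, p = 0.1, the smallest that 3 against 3 pools can give). This calling, by HTODemux, left most haemoglobin-dominated barcodes without a pool. MULTIseqDemux, another caller, placed 8, 25 and 4 of them in the 15-month pools and 300, 92 and 139 in the 3-month pools. Their shares of called barcodes were then 0.868, 0.916 and 0.392% at 15 months and 27.5, 14.8 and 11.3% at 3 months. The difference was -17.2 percentage points (n = 3 pools of each age; exact permutation test, two-sided, p = 0.1, again the smallest possible).

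The hashtags were antibodies that each carried a barcode of 15 bases. These are shown because their median counts were lower in haemoglobin-dominated than in other barcodes.
B0301 (pool 1): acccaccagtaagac
B0302 (pool 2): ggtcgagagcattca
B0303 (pool 3): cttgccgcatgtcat
Any pair of them differed at 11 or more positions. Total hashtag counts in 15-month haemoglobin-dominated barcodes had a lowest value of 9, a median of 55 and a highest of 248, against 0, 1834 and 326134 in other barcodes. At 3 months, the lowest, median and highest totals were 6, 39 and 3848, against 3, 1765 and 303289. The medians lay far apart while the ranges overlapped. HTODemux, which calls a barcode positive for a hashtag above the background of negative barcodes, called 50 of 51 (98.0%) haemoglobin-dominated barcodes negative at 15 months, against 363 of 4888 (7.43%) other barcodes. At 3 months it called 559 of 689 (81.1%) negative, against 81 of 2446 (3.31%), and it called 12 haemoglobin-dominated barcodes doublets of different hashtags. These negative shares are those of this caller. Among barcodes that did get a call, the median total in the 3-month pools 1, 2 and 3 was 71, 75 and 152 in haemoglobin-dominated barcodes, against 1075, 2466 and 1935 in other barcodes. On the log2 scale the mean difference was -4.19 ± 0.73 (SD, n = 3 pools; exact paired permutation test, two-sided, p = 0.25, the smallest that 3 pairs can give). No 15-month pool held 5 haemoglobin-dominated barcodes, so none entered that test.

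**Figure D2:**
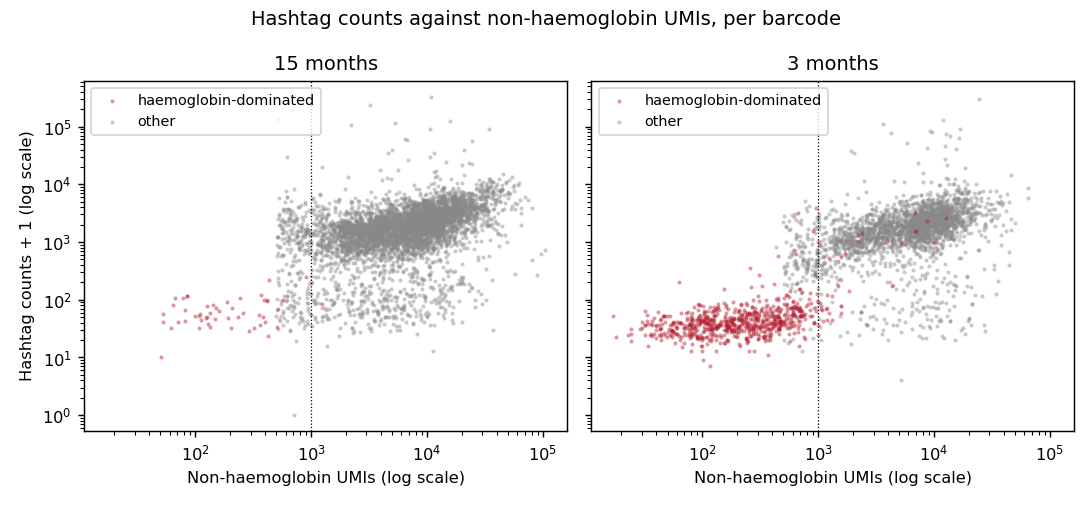
Hashtag counts plus 1 against non-haemoglobin UMIs for each barcode, both on log axes, with 15 months on the left and 3 months on the right. Red points are haemoglobin-dominated barcodes, grey points are other barcodes, and the dotted line marks 1000 non-haemoglobin UMIs. Most red points lie at low hashtag counts (medians 55 and 39), and some of the 3-month red points right of the line lie among the grey ones.

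The globin make-up was much the same in both libraries, as the rule itself fixes only the sum. Hbb-bs made up 54.6% of the haemoglobin UMIs of haemoglobin-dominated barcodes at 15 months and 55.4% at 3 months. Hba-a1 made up 21.0% and 20.1%, Hba-a2 15.7% and 15.2%, and Hbb-bt, the minor adult beta globin, 8.68% and 9.29%. The alpha pair together made up 36.7% at 15 months and 35.3% at 3 months. Per barcode, Hbb-bt varied more than the rest for its size. Its interquartile range was 2.73 to 10.1% at 15 months and 5.51 to 11.1% at 3 months, whereas that of Hbb-bs was 52.4 to 59.4% and 53.5 to 58.7%. Embryonic globins were at or near 0: Hba-x had no UMI, and at 3 months Hbb-bh1 had 2 UMIs and Hbb-y 1, with none at 15 months.

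Beside globin, the transcripts of haemoglobin-dominated barcodes differed widely from those of other barcodes. Among 2099 genes with at least 20 UMIs in haemoglobin-dominated barcodes or at least 20 expected there from the level in other barcodes, 202 (9.62%) were at least 2-fold higher than in other barcodes in both libraries. The 1338 lower genes made up 63.7%. The comparison has 1 library per age and no test, and levels are in UMIs per 1000000 non-haemoglobin UMIs (CPM). Of the higher genes, 114 were at least 10-fold and 29 at least 100-fold higher in both libraries. Of the lower genes, 1038 had no UMI in the 51 barcodes at 15 months, and only 382 had 3 or more UMIs expected there, so most lower calls rest on the 3-month library. The 10 most abundant genes held 37.5% of non-haemoglobin UMIs at 15 months, against 11.6% in other barcodes, and 28.8% at 3 months, against 11.3%.

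The first and the last enzyme of haem synthesis were high. Alas2 had 608 UMIs (48289 CPM) at 15 months, against 8 UMIs (0.179 CPM) in other barcodes. At 3 months it had 9959 UMIs (36118 CPM), against 111 UMIs (5.63 CPM). A haemoglobin-dominated barcode held a median of 8 Alas2 UMIs at 15 months, from 0 to 46, and 12 at 3 months, from 0 to 90. Alas2 was detected in 94.1% of haemoglobin-dominated barcodes at 15 months, against 0.0409% of other barcodes, and in 96.2% at 3 months, against 1.02%. Thinned to 100 non-haemoglobin UMIs, which left out 12 and 160 shallower haemoglobin-dominated barcodes, the shares were 98.6% against 0.000749% and 96.0% against 0.0511%. The marker thus held in almost every barcode that the globin rule selected. Fech averaged 5162 CPM at 15 months, against 14.9 CPM in other barcodes, and 5066 CPM at 3 months, against 11.5 CPM. Of the 12 haem synthesis genes listed, 3 had enough UMIs, of which Alas2 and Fech were higher and Tmem14c, a mitochondrial porphyrin transporter, was lower. Among those with too few UMIs to enter, Urod, uroporphyrinogen decarboxylase, had no UMI at 15 months and 19 (68.9 CPM) at 3 months, against 16.9 CPM in 3-month other barcodes. Alad, which acts after Alas2, had no UMI at 15 months and 2 at 3 months. The median ratio of the 3 genes was 442 at 3 months, beside 0.341 over all 2099 genes.

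Of 13 genes of iron supply and storage, 5 of the 7 with enough UMIs were higher and 1 was lower. Over all genes these shares were 9.62% and 63.7%. The median ratio of the 7 was 31.3 at 3 months. Slc25a37, the mitoferrin that carries iron into erythroid mitochondria, had 4924 CPM at 15 months, against 15.4 CPM in other barcodes, and 3057 CPM at 3 months, against 13.8 CPM. Its relative Slc25a39, a mitochondrial glutathione carrier, had 6195 CPM, against 55.1 CPM, and 5302 CPM, against 54.8 CPM. Glrx5, an iron-sulphur cluster protein, and Ncoa4, the ferritin autophagy receptor, were 33.0-fold and 45.9-fold higher at 15 months and 35.0-fold and 31.3-fold at 3 months. Among the ferritin subunits, Ftl1 was 4.54-fold and 4.07-fold higher, while Fth1 had ratios of 1.39 and 1.37 and was not called. Tfrc, the transferrin receptor of haemoglobin-making precursors, had no UMI at 15 months and 1 at 3 months.

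Membrane and skeleton transcripts were high where they were detected. Of 27 listed genes, 9 had enough UMIs and 8 of these were higher, beside 9.62% of all genes. The median ratio of the 9 was 223 at 3 months. Slc4a1, the band 3 anion exchanger, had 8 UMIs at 15 months, against none in other barcodes, and 58 UMIs at 3 months, against 1 UMI. Tspo2, an erythroid cholesterol-binding protein, had 7 UMIs at 15 months, against none, and 195 at 3 months, against 1. Epb41, protein 4.1 of the skeleton, was 265-fold higher at 15 months and 137-fold at 3 months. Car2, carbonic anhydrase, was 596-fold and 223-fold higher, Cd24a 86.9-fold and 71.9-fold, and Bsg, which carries the Ok blood group in human, 2.73-fold and 3.75-fold. Cd47, a marker of self on red cells and leukocytes, had ratios of 0.640 and 0.647 and was not called. Those without enough UMIs had 17 or fewer in either library. Of the erythroid transcription factors and receptors, Lmo2 was 8.86-fold and 9.07-fold higher, and Hemgn, an erythroid nuclear protein, had 3 and 18 UMIs, against 1 and 2. Klf1 and Gfi1b had no UMI in any haemoglobin-dominated barcode, and Gata1 and Epor had none at 15 months and 2 each at 3 months.

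Transcripts for clearance and ubiquitin conjugation held the largest share among the lists. The 27 listed genes held 18.1% of non-haemoglobin UMIs at 15 months, against 0.475% in other barcodes, and 16.3% at 3 months, against 0.507%. Of the 21 with enough UMIs, 20 were higher and 1 was lower, beside 9.62% and 63.7% of all genes. The median ratio of the 21 was 28.8 at 3 months. Ubb, a polyubiquitin gene, had 29624 CPM at 15 months, against 1737 CPM in other barcodes, and 34617 CPM at 3 months, against 2066 CPM. Mkrn1, a ubiquitin ligase, was 312-fold (95% interval 282 to 344) and 264-fold (252 to 276) higher. Ube2l6, the conjugating enzyme for the ubiquitin-like Isg15, was 877-fold and 520-fold higher, and Ube2o, a ubiquitin-conjugating enzyme that acts on ribosomal proteins in reticulocytes, 259-fold and 101-fold. Bnip3l, the mitophagy receptor that reticulocytes need to lose mitochondria, was 116-fold and 90.9-fold higher. The autophagy proteins Gabarapl2 and Map1lc3b were 90.5-fold and 16.6-fold higher at 15 months and 66.4-fold and 21.3-fold at 3 months. Isg20, an interferon-induced exonuclease on the same list, was 511-fold and 288-fold higher.

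Red cell metabolism genes went both ways. Of 15 genes with enough UMIs, 6 were higher and 8 lower, beside 9.62% and 63.7% of all genes. The share of lower genes was thus not above that of all genes. The median ratio of the 15 was 0.494 at 3 months, beside 0.341 over all 2099 genes. Bpgm, which makes the 2,3-bisphosphoglycerate that lowers the oxygen affinity of haemoglobin, was 4352-fold (3754 to 5048) and 2838-fold (2473 to 3272) higher. The antioxidant enzymes Gpx1, Prdx2, Cat and Gclm were 21.8-fold, 22.0-fold, 13.7-fold and 60.0-fold higher at 15 months and 19.9-fold, 18.2-fold, 12.7-fold and 45.3-fold at 3 months. Blvrb, biliverdin reductase B, was 8.37-fold and 13.4-fold higher. Txn1, a thioredoxin, was lower (0.469 and 0.197), and Gpx4 had ratios of 0.589 and 0.771 and was not called.

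The 20 highest ratios by the naming rule also took in genes outside those lists. Hbq1a and Hbq1b, theta globins that the selection rule left out, had 9 and 3 UMIs at 15 months, against 1 each in other barcodes. At 3 months they had 233 and 130 UMIs, against 1 and none. Trim10, an erythroid ligase of the TRIM family, had 4 UMIs, against none, and 130, against 2. Apol11b, of the apolipoprotein L family, had 20 UMIs, against 7, and 224, against 5, and Rec114, a meiotic recombination protein, had 13, against 12, and 380, against 9. Those other barcodes held 44645110 and 19719193 non-haemoglobin UMIs, far more than the haemoglobin-dominated ones, so similar UMI counts stand for very different levels. Fam220a was 777-fold and 535-fold higher, Cdr2 803-fold and 282-fold, and Paqr9, a receptor of the progestin and adipoQ family, 224-fold and 528-fold.

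**Figure D3:**
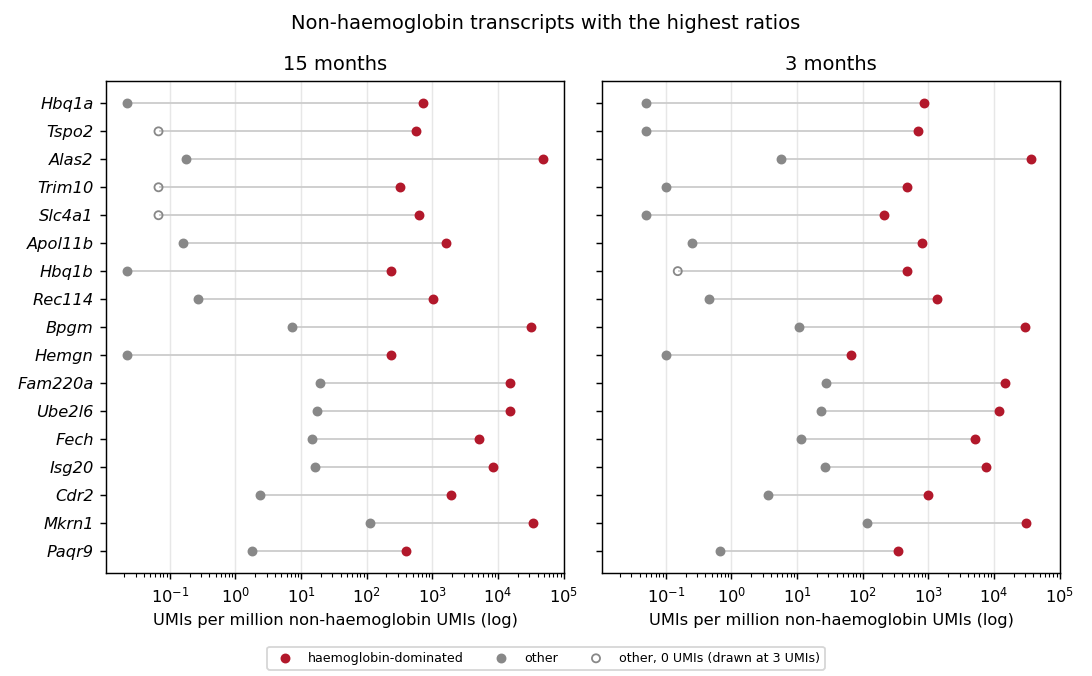
UMIs per 1000000 non-haemoglobin UMIs (CPM, log axis) of genes among the 20 with the highest ratios, with 15 months on the left and 3 months on the right. Filled red points are haemoglobin-dominated barcodes and filled grey points other barcodes, and an open grey point is drawn at 3 UMIs where other barcodes held none. Alas2, Bpgm and Mkrn1 stand farthest right, at 29935 to 48289 in haemoglobin-dominated barcodes.

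Leukocyte transcripts held a lower share of non-haemoglobin UMIs than in other barcodes, except for the mast cell and basophil genes at 3 months. At 15 months, 46 pan-leukocyte UMIs were spread over 31 of 51 barcodes with at most 3 in any one, and at 3 months 1256 lay in 185 of 689 barcodes with up to 204 in one. Ptprc, which encodes CD45, was detected in 1 of 51 haemoglobin-dominated barcodes (1.96%) at 15 months, against 82.0% of other barcodes, and in 18 of 689 (2.61%) at 3 months, against 76.8%. Itgam, which encodes CD11b, was detected in 1 (1.96%), against 50.2%, and in 8 (1.16%), against 43.6%. Depth differed, and at 100 non-haemoglobin UMIs the Ptprc shares were 1.00%, against 8.05%, and 0.410%, against 6.41%. At that depth the Itgam shares were 2.31%, against 1.70%, at 15 months and 0.167%, against 1.38%, at 3 months. Itgam was thus not lower at 15 months at equal depth, where its value rests on 1 barcode. Of 10 pan-leukocyte genes, all with enough UMIs, 9 were lower and none was higher, and their sum was 0.365% of non-haemoglobin UMIs at 15 months, against 1.84%, and 0.456% at 3 months, against 1.63%. Among macrophage genes, 10 of 14 were lower, and among dendritic cell genes 5 of 7, beside 63.7% of all genes. The 3-month median ratio was 0.332 for pan-leukocyte genes, 0.373 for macrophage genes and 0.446 for dendritic cell genes, beside 0.341 over all 2099 genes. The median gene of these lists thus lay near or above that of all genes. These medians cover all 3-month haemoglobin-dominated barcodes, including those rich in leukocyte RNA that the next paragraph describes. All 4 neutrophil genes and all 4 T and NK cell genes with enough UMIs were lower, beside 63.7% of all genes. The macrophage list summed to 0.580%, against 2.46%, and to 0.754%, against 2.15%. Cd3e, Cd3d, Trac and Cd4 had no UMI in any haemoglobin-dominated barcode, but 8 of the 14 listed T and NK cell genes had some. That list had 2 UMIs at 15 months and 179 in 14 barcodes at 3 months, with ratios of 0.136 and 0.408. The mast cell and basophil genes Cpa3 and Mcpt8 had 15 and 11 UMIs in 2 barcodes each at 3 months. Their list had 31 UMIs at 3 months (0.0112%, against 0.000958%, a ratio of 11.7), 20 of them in 1 barcode. It had none at 15 months or in barcodes under 1000 non-haemoglobin UMIs. Platelets, which lack a nucleus too, left no trace of Ppbp, Gp9, Gp1ba or Tubb1 (0 UMIs in both libraries). Pf4, which macrophages express as well, had 3 and 84 UMIs and ratios of 0.404 and 0.625. The 10 lowest ratios belonged to Col4a1, Inha, Clec4e, Mettl23, Igfbp7, Ccl17, Ccl7, Anxa4, Fn1 and Mmp12. They had no UMI at 15 months and 6 or fewer at 3 months.

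At 3 months, 31 haemoglobin-dominated barcodes had 1000 or more non-haemoglobin UMIs, a limit that was set with the data in view, and these carried most of the leukocyte RNA. They held 35.2% of the non-haemoglobin UMIs of all 689 barcodes. Their median hashtag total was 172, and 23 of 31 had a hashtag call, 5 of them as doublets. Ptprc was detected in 12 of the 31 and in 6 of the other 658. Pan-leukocyte genes summed to 1.03% of non-haemoglobin UMIs in the 31, and to 0.142% in the other 658. The 19 barcodes with at least 10 pan-leukocyte UMIs had a median hashtag total of 1339 and all had a call, whereas the other 670 had a median of 39 and 111 calls. Without the 31, the ratios of leukocyte lists to other barcodes at 3 months dropped to 0.0867 for pan-leukocyte genes, against 0.279 with them, and to 0.0582 for dendritic cell genes, against 0.426. The ratio of Alas2 was then 8853, against 6416 with the 31. At 15 months only 1 barcode passed 1000, with no Ptprc UMI and 83 hashtag counts.

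**Figure D4:**
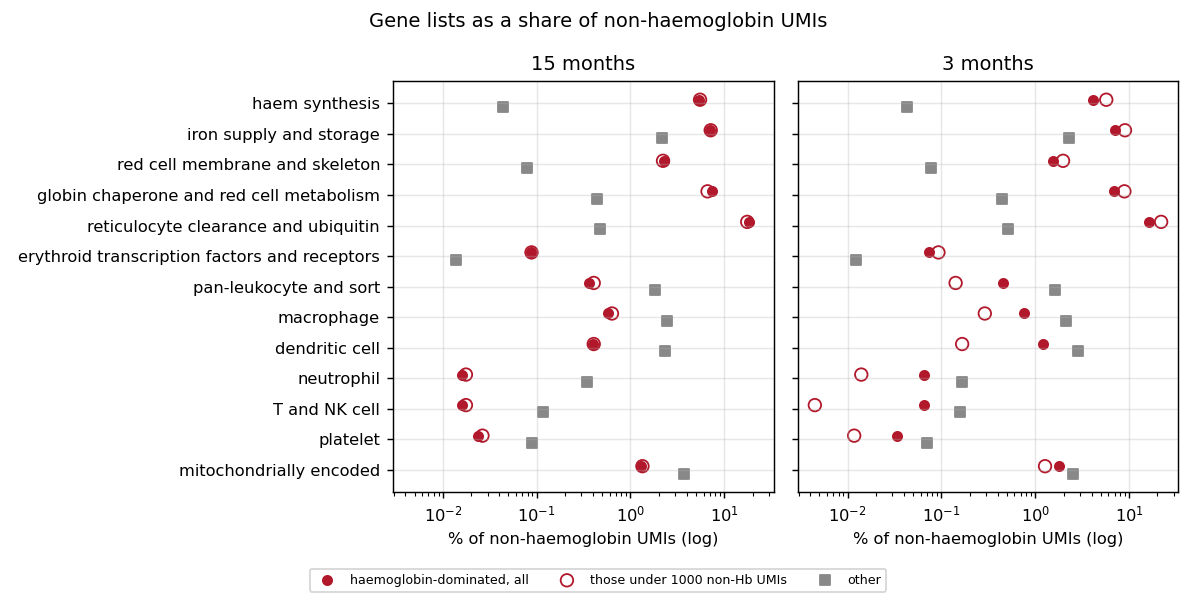
Share of non-haemoglobin UMIs (log axis) held by 13 gene lists, with 15 months on the left and 3 months on the right. Filled red circles are all haemoglobin-dominated barcodes, open red circles those under 1000 non-haemoglobin UMIs, and grey squares other barcodes. The red cell lists lie right of the grey squares, the leukocyte lists left of them, and the open circles of the leukocyte lists lie farther left at 3 months.

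RNA of the nucleus, the mitochondria and the ribosome was lower in share, with exceptions. Malat1, a nuclear long non-coding RNA, was detected in 16 of 51 haemoglobin-dominated barcodes (31.4%) at 15 months, against 96.2% of other barcodes, and in 76 of 689 (11.0%) at 3 months, against 92.4%. Its ratios were 0.0747 and 0.276. Xist, the RNA that coats the inactive X chromosome, had no UMI at 15 months and 35 at 3 months, against 659 CPM and 454 CPM in other barcodes. The 13 mitochondrially encoded genes made up 1.29% of non-haemoglobin UMIs at 15 months, against 3.70%, and 1.79% at 3 months, against 2.53%, and 3 of the 11 with enough UMIs were lower, a smaller share than the 63.7% over all genes. Ribosomal protein genes made up 8.45%, against 18.5%, and 10.9%, against 20.4%, with 47 of 76 lower and 1 higher, a share of lower genes near the 63.7% of all genes. The higher one was Rpl41 (2.77-fold and 2.39-fold). Gm42418, a predicted gene that overlaps ribosomal RNA sequence, went the other way, with 87126 CPM, against 9236 CPM, and 24085 CPM, against 3051 CPM. AY036118 at the same kind of locus had ratios of 8.55 and 8.05. Of the cell cycle genes with enough UMIs, Ube2c, a conjugating enzyme of mitotic exit, was 40.0-fold and 49.0-fold higher and Hmgb2, Tubb5 and Stmn1 were lower, while Mki67 had 0 and 4 UMIs. Of 19 immediate early genes, 15 were lower, beside 63.7% of all genes, and Jund was 2.29-fold and 2.35-fold higher. Their 3-month median ratio was 0.452, beside 0.341 over all genes.

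Haemoglobin-dominated barcodes differed among themselves along their RNA content. Those with at least 200 and under 1000 non-haemoglobin UMIs, here called richer (21 at 15 months, 334 at 3 months), were set beside those with fewer than 200, called leaner (29 and 324). Richer barcodes held a median of 10879 haemoglobin UMIs at 15 months, against 3658 in leaner ones, and 12488 at 3 months, against 5294.5. Hbb-bt made up a median of 10.1% of haemoglobin at 15 months, against 3.64%, and 10.4% at 3 months, against 5.44%. The interquartile ranges did not overlap at 15 months (8.65 to 11.3%, against 1.15 to 7.5%) and met at 3 months (8.59 to 12.1%, against 2.70 to 8.59%). Over the 125 genes with at least 200 UMIs in these 3-month barcodes, 21 (16.8%) were at least 2-fold higher in richer barcodes in both libraries and 1 (0.800%), Rplp1, was at least 2-fold lower. The genes named next were chosen for their 3-month ratio after the values were seen. Car2 was 19.7-fold higher (3.39 to 795) at 15 months and 7.53-fold (4.84 to 12.4) at 3 months. Gpx1 had 31626 CPM in richer barcodes at 15 months, against 5447 CPM in leaner ones, and 40385 CPM at 3 months, against 7769 CPM. Glrx5, Cd24a and Prdx2 were 7.97-fold, 2.91-fold and 2.72-fold higher at 15 months and 4.52-fold, 3.16-fold and 2.44-fold at 3 months. The interferon-induced Isg15 and Rsad2 were 7.78-fold and 5.50-fold higher at 15 months and 2.81-fold and 3.21-fold at 3 months. At 15 months, leaner barcodes held 1 UMI of Glrx5, 2 each of Isg15 and Rsad2 and 6 each of Cd24a and Prdx2. The 15-month intervals were therefore wide, at 1.28 to 330 for Glrx5, 2.02 to 66.4 for Isg15 and 1.39 to 47.6 for Rsad2. Ribosomal protein genes went the other way, with ratios below 1 in 21 of 23 at 15 months and 22 of 23 at 3 months and medians of 0.531 and 0.616, beside 1.27 and 1.17 over all 125 genes. Tpt1 (0.642 and 0.505) and Gm42418 (0.594 and 0.479) were lower in share as well. The shares of a barcode sum to 100%, so a gene that holds more leaves less to the rest.

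**Figure D5:**
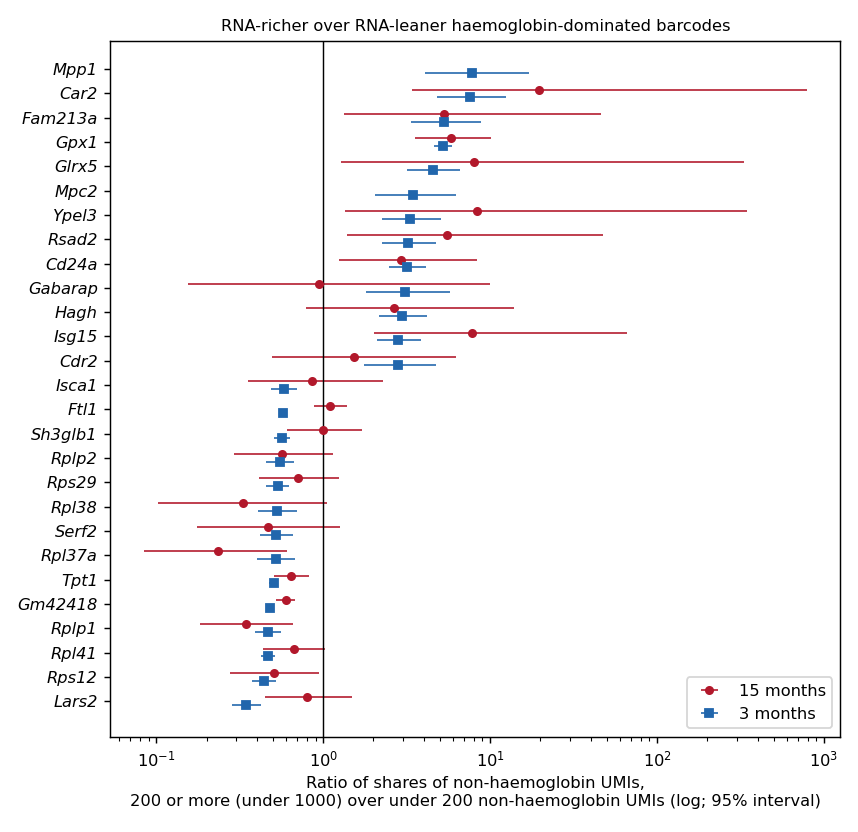
Ratio of the share of non-haemoglobin UMIs (log axis) in haemoglobin-dominated barcodes with at least 200 and under 1000 non-haemoglobin UMIs over those with under 200, for genes among the 14 highest and 14 lowest of 125 by the 3-month ratio. Red circles are 15 months and blue squares 3 months, with exact 95% counting intervals. Mpp1 and Mpc2 have no 15-month point, since leaner barcodes held none of their UMIs, and the ribosomal protein genes lie left of 1.

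Most transcripts of the haemoglobin-dominated barcodes were within 2-fold of each other between the ages. Of 120 genes with at least 20 UMIs at 15 months or at least 20 expected there from the 3-month level, 6 (5.00%) had at least 2-fold higher CPM at 15 months and 13 (10.8%) at least 2-fold lower, with a median ratio of 0.992. These values have no test, since HTODemux left 0, 0 and 1 haemoglobin-dominated barcodes in the 15-month pools. With pools called by MULTIseqDemux, a choice made after seeing the data, edgeR called 0 of 218 genes higher and 0 lower by age (0% each, 10 at an unadjusted p under 0.05), over 405 to 6593 non-haemoglobin UMIs per 15-month pool. Gm42418 came nearest, with 102574 ± 13988 CPM in 15-month pools and 34108 ± 3757 CPM in 3-month pools (SD, n = 3 pools of each age; log2 difference 1.59, edgeR adjusted p = 0.245). DESeq2 called this gene alone (adjusted p = 0.0065), as did edgeR without pool 3 of 15 months (adjusted p = 1.9e-05), without pool 3 of 3 months (adjusted p = 0.00032) and without barcodes of 1000 or more non-haemoglobin UMIs (adjusted p = 0.0041). The lower genes included Cd74, H2-Aa, H2-Ab1, H2-Eb1, Cst3, Malat1 and Tmsb4x, the genes of the leukocyte-bearing barcodes described above. Without barcodes of 1000 or more non-haemoglobin UMIs, 13 were higher and 2 lower, and the ratio of Tmsb4x turned to 2.64, against 0.484 with them, and that of Malat1 to 2.63, against 0.330. Gm42418 was 3.62-fold higher at 15 months (3.39 to 3.86), AY036118 4.36-fold (2.97 to 6.23) and Lars2 2.86-fold (2.13 to 3.78). In other barcodes the same genes had age ratios of 3.03, 4.10 and 2.39. Epb41, at 9292 CPM at 15 months and 3554 CPM at 3 months, had a ratio of 2.61 (2.14 to 3.17), against 1.35 in other barcodes, and 1.96 (1.58 to 2.39) without the barcodes of 1000 or more. Alas2, Mkrn1 and Bpgm had ratios of 1.34 (1.23 to 1.45), 1.13 (1.02 to 1.24) and 1.07 (0.970 to 1.19). Without the barcodes of 1000 or more, the ratios were 0.996 (0.913 to 1.08), 0.798 (0.717 to 0.885) and 0.759 (0.680 to 0.845). Mkrn1 thus turned from higher to lower, by counting error alone. The interval of Bpgm with those barcodes and that of Alas2 without them included 1.

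The 3-month pools gave the same transcripts at different levels. The values cover only the 53, 42 and 23 of 689 haemoglobin-dominated barcodes that HTODemux called, and calls were more frequent in barcodes with leukocyte RNA. Alas2 had 33972, 49580 and 8425 CPM in the haemoglobin-dominated barcodes of pools 1, 2 and 3, against 4.37, 3.86 and 5.14 CPM in the other barcodes, with the lowest level in pool 3. Bpgm had 29650, 35634 and 6158 CPM and Mkrn1 31338, 39313 and 6685 CPM in the same order. Cd74 ran the other way, with 3921, 1098 and 14452 CPM. The median non-haemoglobin UMIs were 534, 340 and 1053, so pool 3 held the called barcodes richest in other RNA. In the larger MULTIseqDemux pools (300, 92 and 139 barcodes), Alas2 had 52978, 63819 and 37293 CPM. Those values were filtered and normalised by edgeR, so their scale differs, but the pools lay closer together.

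Haemoglobin RNA also reached other barcodes, at 0.0143% of their UMIs at 15 months and 0.354% at 3 months. Most of it at 15 months (5129 of 6368 UMIs) was in 1 barcode. At 3 months, 10992 of 69968 UMIs lay in the 2428 barcodes with at most 5% haemoglobin, and the rest in few barcodes above 5%. The median other barcode held 0 haemoglobin UMIs at 15 months and 4 at 3 months. Per 10000 haemoglobin UMIs, Alas2 had 15.3 UMIs (14.2 to 16.6) in haemoglobin-dominated barcodes at 15 months, against 12.6 (5.42 to 24.8) in other barcodes. At 3 months it had 13.8 (13.5 to 14.1), against 15.9 (13.1 to 19.1). These intervals overlapped within each library, by counting error alone. In 3-month other barcodes with at most 5% haemoglobin, Alas2 had 8 UMIs in 2428 barcodes, 7.28 per 10000 (3.14 to 14.3). Several other genes stood apart. Bpgm and Ube2l6 had 518 and 1231 per 10000 haemoglobin UMIs in 15-month other barcodes, against 10.2 and 4.90 in haemoglobin-dominated ones. Fam220a, Fech, Isg20 and Mkrn1 had 1369, 1044, 1156 and 7731, against 4.82, 1.64, 2.68 and 10.9. Of the 330 Bpgm UMIs, 328 lay in barcodes with at most 5% haemoglobin. In the summed pools of other barcodes, with the 4 globins left out, 17 genes (0.143%) were higher and 2 (0.0168%) lower at 15 months among 11893 tested (edgeR quasi-likelihood test, Benjamini-Hochberg adjusted p under 0.05). Of the genes named above, Alas2 averaged 0.144 ± 0.158 CPM at 15 months and 4.61 ± 0.697 CPM at 3 months (SD, n = 3 pools each; log2 difference -4.42, edgeR adjusted p = 0.038), lower in every 15-month pool. Of the 111 Alas2 UMIs in all 3-month other barcodes, 8 lay in the 2428 with at most 5% haemoglobin. The Alas2 difference thus rests mainly on few barcodes above 5%, and the fit was not repeated without them. Gm42418 averaged 9845 ± 1293 CPM at 15 months and 3251 ± 437 CPM at 3 months (log2 difference 1.60, edgeR adjusted p = 0.016), higher in every 15-month pool. DESeq2 called 105 genes higher and 129 lower, and edgeR called 0, 1 and 0 genes without pool 1, 2 or 3 of 3 months.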

How the data were processed

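Gene and hashtag counts of 1 library per age were taken as deposited: UMI counts per gene and barcode that the authors made with Cell Ranger against mm10, version 4.0.0 per the file headers and 7.0.0 per the submitters' processing notes, which also name FastQC 0.11.4. No depth scaling or cell filter was added. Haemoglobin-dominated barcodes (members) were selected on haemoglobin share, and members and gene lists were chosen with earlier results of these data known. Hashtags were called per library with HTODemux (Seurat 5.3.0, positive quantile 0.99), and doublets were kept and counted.

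UMIs were summed over barcodes, the 4 rule globins left out, and divided by the sum over genes (CPM). A gene entered with at least 20 UMIs in members or expected there, and was called at 2-fold or more in the same direction in both libraries. Where one set had no UMI, the ratio used 3 UMIs. Ratio intervals are exact 95% and cover counting error. Text names the 20 highest and 10 lowest ratios, ranked by the library nearer to 1, and the top genes of each list, and some of these are not reported here. A limit of 1000 non-haemoglobin UMIs was added after seeing the data. Pool shares and hashtag differences were tested with exact permutation tests. In other barcodes, counts summed per hashtag pool were tested by age with edgeR 4.0.16 (TMM, filterByExpr, quasi-likelihood test, Benjamini-Hochberg), with DESeq2 1.42.0 as an alternative, and members likewise on pools called by MULTIseqDemux, after the edgeR script was tested on simulated data. Pools come from separate animals but share 1 library per age, so p-values measure the spread between pools only. Pool numbers did not pair the samples (correlations of deviations 0.0438, -0.0139 and 0.207 for pools 1, 2 and 3). Gene positions are GENCODE M21 and promoters RefSeq, both GRCm38. Python 3.11.15 (numpy 2.4.6, scipy 1.17.1, pandas 2.3.3, matplotlib 3.10.9) and R 4.3.3 were used.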

Additional observations from a re-analysis of the deposited data

Results flagged for a closer look

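In 2 genes the haemoglobin-dominated barcodes lay below other barcodes in one library and above them in the other, and the difference between the ages was not tested. Ccl4, a chemokine, had a ratio of 0 at 15 months (0 UMIs, 95% interval up to 0.259) and 1.38 at 3 months (441 UMIs, 1.25 to 1.52). Of the 441 UMIs, 238 lay in 1 barcode, and in 3-month barcodes under 1000 non-haemoglobin UMIs the ratio was 0.125. The mitochondrial transcript mt-Co1 had a ratio of 0.571 (0.419 to 0.759) at 15 months and 1.07 (1.02 to 1.13) at 3 months, and without barcodes of 1000 or more non-haemoglobin UMIs the ratios were 0.579 and 1.08.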

How the results depend on the processing

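The number of haemoglobin-dominated barcodes, their share per pool and their hashtag difference kept their direction under every alternative run. The share difference was -17.2 percentage points with MULTIseqDemux and -5.43 with the top hashtag at 70% or more and at least 10 counts, against -6.46 with HTODemux, and leaving out 1 pool gave shares between -4.96 and -8.59 percentage points and hashtag differences between -3.78 and -4.46 on the log2 scale. With the pool number as a replicate block the share difference was -6.46 percentage points (p = 0.25, exact permutation test, the smallest possible). Against other barcodes, 95 genes were higher and 138 lower when members were limited to those under 200 non-haemoglobin UMIs, and 2557 and 534 were lower at a minimum of 10 and of 50 UMIs. These alternatives change how many genes can enter. Of 420 values of 30 named genes, 341 stayed within their interval, 76 moved and 3 reversed. The reversed ones were Inha at 3 months over 30% haemoglobin (1.49), and Trim10 at 15 months (0) and Slc4a1 at 3 months (0) in members under 200 non-haemoglobin UMIs. Between the ages within members, 13 genes were higher and 2 lower without barcodes of 1000 or more non-haemoglobin UMIs. In other barcodes, 19 genes differed by age, against 71 with no filter on low counts, 9 with the replicate block and 234 with DESeq2, and between 0 and 27 when 1 pool was left out. The cause was not tested. The planned fits of age within members were not run on HTODemux pools, which held 0, 0 and 1 members at 15 months. On MULTIseqDemux pools, added after seeing the data, edgeR called 0 genes, 0 with no filter, between 0 and 1 when 1 pool was left out, and 1 (Gm42418, higher) each with no TMM, the replicate block, DESeq2 and members under 1000 non-haemoglobin UMIs. With members under 200 non-haemoglobin UMIs it called 4 of 45, Tmsb4x, Apoe and Gm42418 higher and Ubb lower. In data simulated for the fit on all members over 199 genes, 11.5% of 26 genes changed by 1 and 69.2% of 26 changed by 2 on the log2 scale were recovered, with 3 false calls. The simulation gave every gene the same spread between pools beyond counting error, so recovery in the real pools may be lower. Its result moved with the random seed, and an earlier seed recovered more genes with no false call. With HTODemux, hashtags were compared over the 3 pools with at least 5 members. The 12591 non-haemoglobin UMIs at 15 months limit every comparison between the libraries.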
